A study of Mus musculus with 18 samples.

Results

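The Schlafen (Slfn) genes are a family of paralogues that lie side by side on mouse chromosome 11, and 7 of them, Slfn1, Slfn2, Slfn3, Slfn4, Slfn5, Slfn8 and Slfn9, were followed across the strains, disease stages and cell types of a study of lupus haematopoietic progenitors. They were picked by symbol, and all 7 were found among the 19780 genes of the table of LSK (Lin-Sca-1+c-Kit+ cells, which hold the stem and early progenitor cells of mouse bone marrow) and among the 18428 genes of the table of common myeloid progenitors (CMPs). The annotation lists 11 genes with a Slfn symbol, of which 10 were in the LSK table and 9 were among the CMP genes. RNA was sequenced from 12 LSK samples and 6 CMP samples of female mice, with 3 samples in each group. F1-P mice were NZBW/F1 hybrids, a strain that develops lupus spontaneously, at the prediseased stage and 12 weeks of age. F1-L mice were the same hybrids with lupus and proteinuria at 28 to 36 weeks. B6-Y and B6-O were wild-type C57BL/6 mice of 12 weeks and of 28 to 36 weeks. LSK were sequenced in all 4 groups and CMPs in F1-P and F1-L. F1-L mice were also older than F1-P mice, so disease and age cannot be told apart between them in either cell type. In LSK the ageing of a healthy strain can be set beside that difference, but it is another strain and does not separate them. Whether the 3 samples of a group were separate mice or pools is not stated in the labels. A figure legend of the study gives an n per replicate for CMPs without saying what it counts, so a CMP value may be that of a pool, and p-values measure the spread between these samples.

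Schlafen proteins share an N-terminal core, and the family is grouped by length: Slfn1 and Slfn2 are short, Slfn3 and Slfn4 are intermediate, and Slfn5, Slfn8 and Slfn9 are long and carry a helicase-like region as well. Several members are induced by type I interferon, the cytokine most closely tied to lupus. The family is known for holding back the growth and activation of lymphocytes and myeloid cells, and its core can cleave transfer RNA.

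By GENCODE M21 on GRCm38, the 7 members span chr11:82951349-83215154. Slfn5 opens the cluster on the plus strand, Slfn9 and Slfn8 follow on the minus strand, and Slfn2, Slfn1, Slfn4 and Slfn3 close it on the plus strand, with the pseudogene Slfn10-ps between Slfn8 and Slfn2. Slfn8 and Slfn9, and Slfn3 and Slfn4, are pairs of near-copies. The coding sequences of Slfn8 and Slfn9 are 2730 bases long (910 codons before the stop) and 92.7% identical, and those of Slfn3 (1920 bases) and Slfn4 (1806 bases) are 92.1% identical over the aligned part. Slfn5 is 57.04% to 62.84% identical to the others. The longest stretches without a difference bear on how far reads of these pairs can be told apart, and they are shown here from the GENCODE M21 transcripts with 15 bases on either side, in capitals where the pair differs. All lie in coding exons, and each is written along its own gene. For Slfn8 it is chr11:83003119-83003287 and for Slfn9 chr11:82981216-82981384, with 139 identical bases.
Slfn8: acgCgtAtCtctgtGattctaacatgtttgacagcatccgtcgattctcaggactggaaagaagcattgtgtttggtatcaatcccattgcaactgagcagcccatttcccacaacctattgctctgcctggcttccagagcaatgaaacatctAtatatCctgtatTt
Slfn9: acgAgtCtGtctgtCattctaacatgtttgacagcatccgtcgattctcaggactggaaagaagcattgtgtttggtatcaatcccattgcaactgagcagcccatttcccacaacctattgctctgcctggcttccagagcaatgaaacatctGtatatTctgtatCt

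For Slfn3 it is chr11:83214596-83214720 and for Slfn4 chr11:83188771-83188895, with 95 identical bases.
Slfn3: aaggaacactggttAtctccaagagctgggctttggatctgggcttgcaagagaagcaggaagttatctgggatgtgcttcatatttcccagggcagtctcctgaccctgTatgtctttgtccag
Slfn4: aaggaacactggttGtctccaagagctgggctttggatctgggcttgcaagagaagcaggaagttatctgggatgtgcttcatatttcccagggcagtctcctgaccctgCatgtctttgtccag

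Of all windows of 75 bases in its transcripts, 6.99% in Slfn8, 5.90% in Slfn9, 6.78% in Slfn3 and 3.12% in Slfn4 also occurred in another gene, most often in the pseudogenes Slfn10-ps (for Slfn8 and Slfn9) and Gm11427 (for Slfn3 and Slfn4). The share was 1.70% in Slfn2, where the other gene was Slfn4, 1.63% in Slfn5 and 0 in Slfn1. The coding sequences of Slfn2 and Slfn4 were 72.9% identical over the aligned part, with a longest identical run of 101 bases. Reads were counted with HTSeq, and how those that fit more than one gene were handled is not given in the sources used here, so a small part of these reads may have been lost or counted for a gene of like sequence. Slfn5 overlaps the antisense gene Slfn5os over 559 exonic bases, and with a library kit that does not mark strand the reads of both cannot be told apart there.

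Promoters of 300 bases (250 before to 50 after a start site) were available from RefSeq on GRCm38.p6 for all 7 members, with 2 start sites for Slfn8. The letters of an interferon-stimulated response element (GAAA, any 2 bases, then GAAA again, on either strand) were found in those of the long members Slfn5, Slfn8 and Slfn9 and in none of Slfn1, Slfn2, Slfn3 and Slfn4, against 3.44% of 32851 mouse promoters in all. In Slfn5 the match began 155 bases before the start site, and in Slfn8 and Slfn9 it lay 48 and 45 bases before it with the same 10 letters on the minus strand of the window. From the other start site of Slfn8 the same match lay 136 bases before. A match is a description of these letters, not of binding, and no match says only that they were not in these windows. Of other motifs searched on both strands, TTGCNNAA (C/EBP, 10.8% of promoters) occurred in Slfn2 and Slfn3, GAGGAA (PU.1, 28.3%) in Slfn9, and TTCNNNGAA (GAS, 8.30%) in none of the 7. The windows of the 3 genes with the interferon letters (in capitals, with the PU.1 letters of Slfn9 in capitals too) are shown beside that of Slfn4, which has none of the motifs. Slfn5 and Slfn8 were called in a comparison, Slfn9 is shown as the near-copy of Slfn8, and Slfn4 had the largest stage difference. They are chr11:82951852-82952151 (plus strand) for Slfn5, chr11:83020761-83021060 (minus) for Slfn8, chr11:82991781-82992080 (minus) for Slfn9 and chr11:83174936-83175235 (plus) for Slfn4.
Slfn5: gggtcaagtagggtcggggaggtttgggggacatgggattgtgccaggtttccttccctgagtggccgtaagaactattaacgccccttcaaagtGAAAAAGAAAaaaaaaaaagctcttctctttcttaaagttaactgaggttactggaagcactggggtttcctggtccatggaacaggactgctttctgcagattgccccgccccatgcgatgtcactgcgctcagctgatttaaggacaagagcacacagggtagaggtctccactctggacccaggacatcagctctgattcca
Slfn8: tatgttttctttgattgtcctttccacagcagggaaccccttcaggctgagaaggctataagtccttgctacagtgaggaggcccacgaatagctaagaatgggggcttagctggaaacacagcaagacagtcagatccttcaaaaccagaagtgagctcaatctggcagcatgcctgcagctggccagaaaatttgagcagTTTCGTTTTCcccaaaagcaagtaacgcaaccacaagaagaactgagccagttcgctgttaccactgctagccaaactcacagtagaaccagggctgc
Slfn9: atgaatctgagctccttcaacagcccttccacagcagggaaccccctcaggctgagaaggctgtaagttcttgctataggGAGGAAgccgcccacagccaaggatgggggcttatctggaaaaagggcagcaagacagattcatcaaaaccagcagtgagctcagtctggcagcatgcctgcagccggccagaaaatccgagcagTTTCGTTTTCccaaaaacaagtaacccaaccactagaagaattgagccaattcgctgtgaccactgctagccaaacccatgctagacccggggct
Slfn4: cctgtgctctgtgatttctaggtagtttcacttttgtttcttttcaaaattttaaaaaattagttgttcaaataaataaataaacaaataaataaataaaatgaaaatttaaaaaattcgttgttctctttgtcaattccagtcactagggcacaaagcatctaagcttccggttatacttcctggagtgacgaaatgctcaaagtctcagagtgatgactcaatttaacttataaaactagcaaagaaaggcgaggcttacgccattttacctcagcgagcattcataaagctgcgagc

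The deposited values are CPM, read counts relative to library size, in which the library sizes had been scaled. They are here called scaled CPM, and 1 read was worth 0.0310 to 0.0584 scaled CPM in LSK and 0.0392 to 0.0516 in CMPs. The samples held 23772252 to 28493747 reads in LSK and 20001328 to 24761060 in CMPs. Tests were made with limma on log2(scaled CPM + 1) across all genes with at least 1 scaled CPM in at least 3 samples of a comparison, with Benjamini-Hochberg adjustment. Calls needed both an adjusted p no higher than 0.05 and more than a 1.5-fold difference. Because 1 was added before taking logs, the fold changes of low genes are understated. The labelled cell types were checked first. Kit, the receptor used to sort both populations, was at 257 to 657 scaled CPM in every LSK and at 416 to 668 in every CMP sample. Ly6a, the gene of Sca-1, was at 35.5 to 879 in LSK and at 1.14 to 6.70 in CMPs. The study's methods write the CMP gate as Sca-1 positive, which is at odds with so low a level. Genes of cells that a lineage-negative gate should remove were nevertheless present, and they moved with some of the Schlafen genes, as given beside each result.

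Per kb of exon, Slfn8 was the most abundant of the long members in each of the 6 groups, with means of 10.9 ± 3.23 (SD, n = 3) scaled CPM per kb in B6-O, 15.2 ± 2.20 in B6-Y, 19.4 ± 1.46 in F1-P and 23.3 ± 5.65 in F1-L LSK. Its near-copy Slfn9 was at 6.31 ± 0.766 to 8.66 ± 3.99 per kb in the LSK groups, and Slfn5 at 2.42 ± 0.210 to 3.77 ± 0.0864. By rounded values, Slfn8 lay above Slfn9 per kb in 17 of the 18 samples, and in B6-O replicate 2 both rounded to 12.6. The intermediate member Slfn3 was at 2.65 ± 0.134 to 3.26 ± 1.93 per kb in LSK, and its samples overlapped with those of Slfn5 in 3 of the 4 groups. Slfn2, Slfn4 and Slfn1 had no fixed place in this order, since their levels differed several-fold between samples of one group. Among the members, the coefficient of variation within F1-P LSK ran from 5.07% in Slfn3 to 53.7% in Slfn4, and within B6-Y LSK from 2.29% in Slfn5 to 152% in Slfn4. Of the remaining family genes, the pseudogene Slfn10-ps was at 2.77 to 23.7 scaled CPM in LSK. Slfn14 was at most at 3.50 scaled CPM in LSK or 6.11 in CMPs, and Slfnl1, on chromosome 4, did not exceed 0.669 in LSK.

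**Figure D1:**
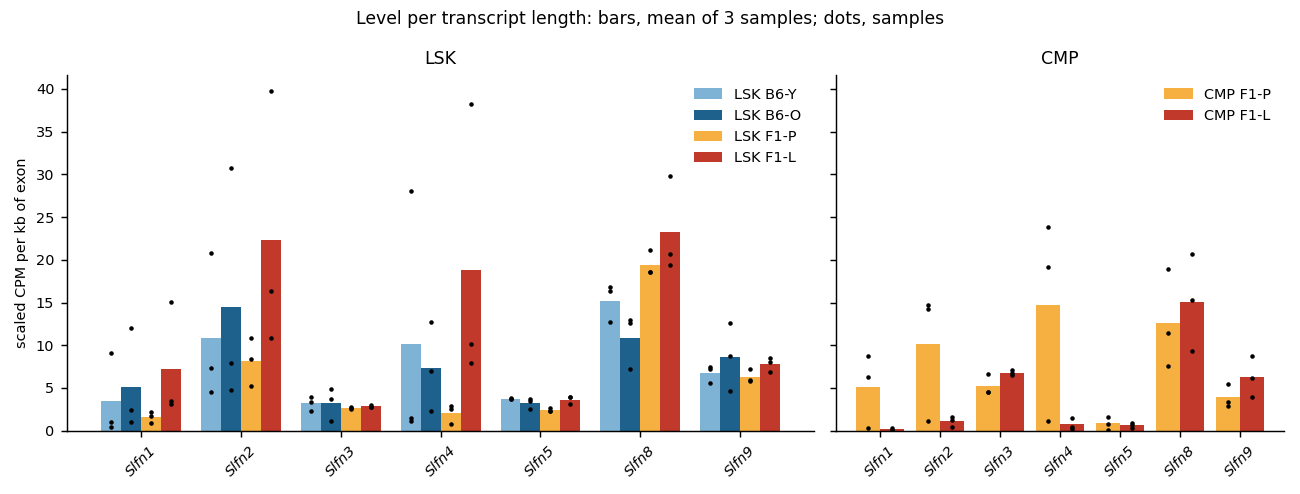
Level of each Schlafen member per kb of exon (vertical axis, scaled CPM per kb) in the 4 LSK groups (left) and 2 CMP groups (right), as bars for the mean of 3 samples and dots for the samples. Slfn8 reached 23.3 per kb in F1-L LSK, while the dots of Slfn1, Slfn2 and Slfn4 are widely spread within groups, and the tables of both cell types were normalized separately.

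Slfn4, an intermediate member expressed in cells of the myeloid lineage, had the largest difference of the 7 between disease stages in LSK. It was at 152, 40.6 and 31.6 scaled CPM in F1-L replicates 1, 2 and 3, and at 3.26, 9.92 and 11.7 in F1-P. Every F1-L sample was thus above every F1-P sample, and F1-L replicate 1 stood far above the other two. The log2 fold change was 2.82 (SE 0.65, 95% interval 1.28 to 4.35) with an unadjusted p of 0.00341 and an adjusted p of 0.188 in limma, so it was not called. In C57BL/6 mice, Slfn4 was at 27.6, 9.19 and 50.3 in B6-O and at 4.34, 111 and 5.68 in B6-Y. The groups overlapped there, and 1 young sample was higher than all old ones. The stage difference of NZBW/F1 minus that of C57BL/6 was 2.18 on the log2 scale (SE 1.49, 95% interval -1.09 to 5.45, adjusted p = 0.976 in limma), so no difference between the strains was shown. It was 0.77 without B6-Y replicate 2, and dropping any other single sample gave at most 2.97.

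Slfn1 and Slfn2, the short members, followed the same samples. Slfn1, which slows the growth of thymocytes when overexpressed, was at 28.2, 6.48 and 5.93 scaled CPM in F1-L LSK and at 1.65, 4.08 and 3.11 in F1-P. These groups did not overlap. Its log2 fold change was 1.59 (SE 0.57, unadjusted p = 0.0261, adjusted p = 0.312 in limma). Slfn2, which keeps T cells and monocytes quiescent, was at 66.1, 17.9 and 27.2 in F1-L and at 8.70, 13.9 and 18.1 in F1-P, where the highest F1-P sample lay just above the lowest F1-L sample. Its log2 fold change was 1.23 (SE 0.47, unadjusted p = 0.0353, adjusted p = 0.340 in limma). In the controls both genes had 1 high sample per group, at 16.9 (Slfn1) and 34.5 (Slfn2) in B6-Y replicate 2 and at 22.4 and 51.3 in B6-O replicate 3. The other C57BL/6 samples lay between 0.899 and 4.51 for Slfn1 and between 7.53 and 13.1 for Slfn2.

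Slfn5, a long interferon-inducible member found in the nucleus, was at 24.9, 19.4 and 24.8 scaled CPM in F1-L LSK and at 14.7, 14.4 and 16.8 in F1-P. All F1-L samples were above all F1-P samples, with a log2 fold change of 0.56 (SE 0.14, unadjusted p = 0.00623, adjusted p = 0.199 in limma). Slfn3, Slfn8 and Slfn9 had overlapping stages, with log2 fold changes of 0.09 (SE 0.13), 0.23 (SE 0.17) and 0.31 (SE 0.13). All 7 members thus had a log2 fold change above 0 between F1-L and F1-P, with a median of 0.56, beside a median of -0.01 over the 14332 genes tested. Of the 7, limma called 0, where 4 genes in all, or 0.0279%, were called, and 4 had an unadjusted p below 0.05, as did 12.8% of all genes. In 3 of the 7 the F1-L samples all lay above the F1-P samples, as in 10.4% of all genes, and in 0 of the 7 they all lay below, as in 7.29%. With the read counts recovered from these values, the quasi-likelihood test of edgeR called 0 members. The likelihood ratio test of edgeR called Slfn4 (log2 fold change 3.17, adjusted p = 0.00136) and Slfn1 (2.20, adjusted p = 0.0362), where 4.58% of genes were called, and DESeq2 called Slfn4, Slfn1 and Slfn2 (1.44, adjusted p = 0.0414), where 5.13% were.

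**Figure D2:**
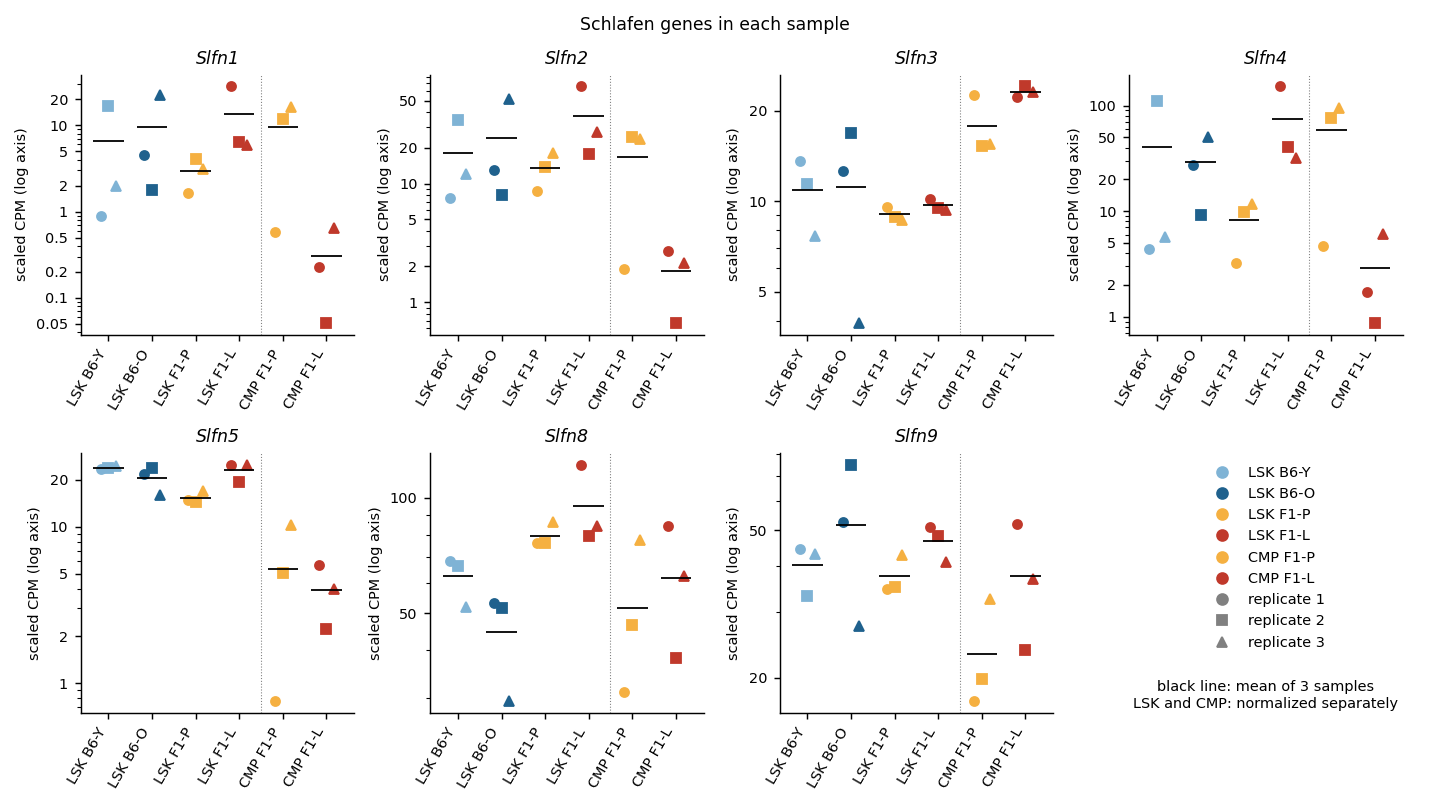
Scaled CPM (vertical log axes) of each member in every sample, by group, with the replicate number as the symbol and the mean of 3 samples as a black line; LSK and CMPs (right of the dotted line) were normalized separately. Slfn1 and Slfn2 have 1 high sample in B6-Y, B6-O and F1-L LSK and 2 in F1-P CMPs, Slfn4 is spread more evenly in B6-O (9.19 to 50.3), while Slfn5 has its lowest LSK mean in F1-P and Slfn8 is above 75 in all NZBW/F1 LSK.

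In 3 of the 4 LSK groups the highest sample of Slfn1, Slfn2 and Slfn4 was the one richest in genes of mature neutrophils, cells that an LSK gate should not hold. A list of 10 such genes (among them S100a8, S100a9, Camp, Ltf and Mmp8, of which 0 were at 0 in any sample) summed to 12328, 4888 and 1978 scaled CPM in F1-L and to 299.9, 524 and 1275 in F1-P. In the controls it summed to 498, 5428 and 484 in B6-Y and to 1732, 829.5 and 10693 in B6-O. S100a9 was the most abundant gene of the list in every sample, and 10 of the 10 genes were highest in F1-L replicate 1, in B6-Y replicate 2 and in B6-O replicate 3 among the samples of their group. Those 3 samples also had the highest Slfn1, Slfn2 and Slfn4 of their group. In F1-P all 10 genes were highest in replicate 3, which had the highest Slfn2 and Slfn4, while Slfn1 was highest in replicate 2 (4.08 against 3.11 scaled CPM in replicate 3). Taken as deviations from the group means over the 12 LSK samples, the mean log2 level of the list correlated with Slfn1 (Pearson r = 0.95, exact permutation within groups p = 0.00386, adjusted 0.0270, Spearman rho = 0.97), with Slfn2 (r = 0.92, p = 0.00540, adjusted 0.0284, rho = 0.83) and with Slfn4 (r = 0.94, p = 0.000772, the smallest these permutations can give, adjusted 0.0108, rho = 0.93). The exact p of rho was 0.00154 (adjusted 0.0162) for Slfn1, 0.0177 (adjusted 0.0929) for Slfn2 and 0.000772 (adjusted 0.0108) for Slfn4. Without the 2 samples farthest from the median of the list, B6-O replicate 3 and B6-Y replicate 2, r was 0.89, 0.85 and 0.93.

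In all, 42 such relations (7 members and 6 lists) were computed, and the same 3 members also correlated with genes of monocytes and of T and NK cells. The study's lineage gate names CD11b and CD16/32, which NK cells can carry, and no antibody to T cells. With 10 genes of T and NK cells r was 0.91 for Slfn1 (p = 0.000772, adjusted 0.0108, exact permutation), 0.89 for Slfn2 (p = 0.00463, adjusted 0.0278) and 0.77 for Slfn4 (p = 0.00231, adjusted 0.0243). With 10 genes of monocytes and macrophages it was 0.96 for Slfn2 (p = 0.000772, adjusted 0.0108, exact permutation), 0.87 for Slfn1 (adjusted 0.0360) and 0.78 for Slfn4 (adjusted 0.0270). For these 6 relations rho was 0.77 to 0.97, with adjusted p of 0.0108 to 0.110 by exact permutation, and r was 0.75 to 0.93 without the 2 samples farthest from the median of each list, B6-O replicate 3 and F1-L replicate 1. With the plasma cell list r was 0.71, 0.77 and 0.57 for Slfn1, Slfn2 and Slfn4 (rho = 0.61, 0.78 and 0.58), and it was -0.85 for Slfn3 (rho = -0.71) and -0.80 for Slfn9 (rho = -0.66), with adjusted p of 0.0825 to 0.233 by exact permutation. Without the 2 samples farthest from the median of that list, B6-O replicates 2 and 3, these were 0.51, 0.55, 0.50, -0.56 and -0.38. With the list of LSK and stem cell genes r was -0.61, -0.51 and -0.52 for Slfn1, Slfn2 and Slfn4 (adjusted p of 0.227 to 0.314, exact permutation). With 25 genes of the type I interferon response it was 0.04, 0.25 and -0.15. Slfn3, Slfn5, Slfn8 and Slfn9 had r of -0.56 to -0.08 with the neutrophil list, with exact p of 0.160 to 0.835. The part of other cells in the stage difference of Slfn1, Slfn2 and Slfn4 was not tested, and in bulk RNA more cells of a type and more RNA per cell cannot be told apart. Without F1-L replicate 1 the stage differences were 0.92 for Slfn1, 0.72 for Slfn2 and 2.13 for Slfn4 on the log2 scale, with adjusted p of 0.283, 0.448 and 0.175 in limma.

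**Figure D3:**
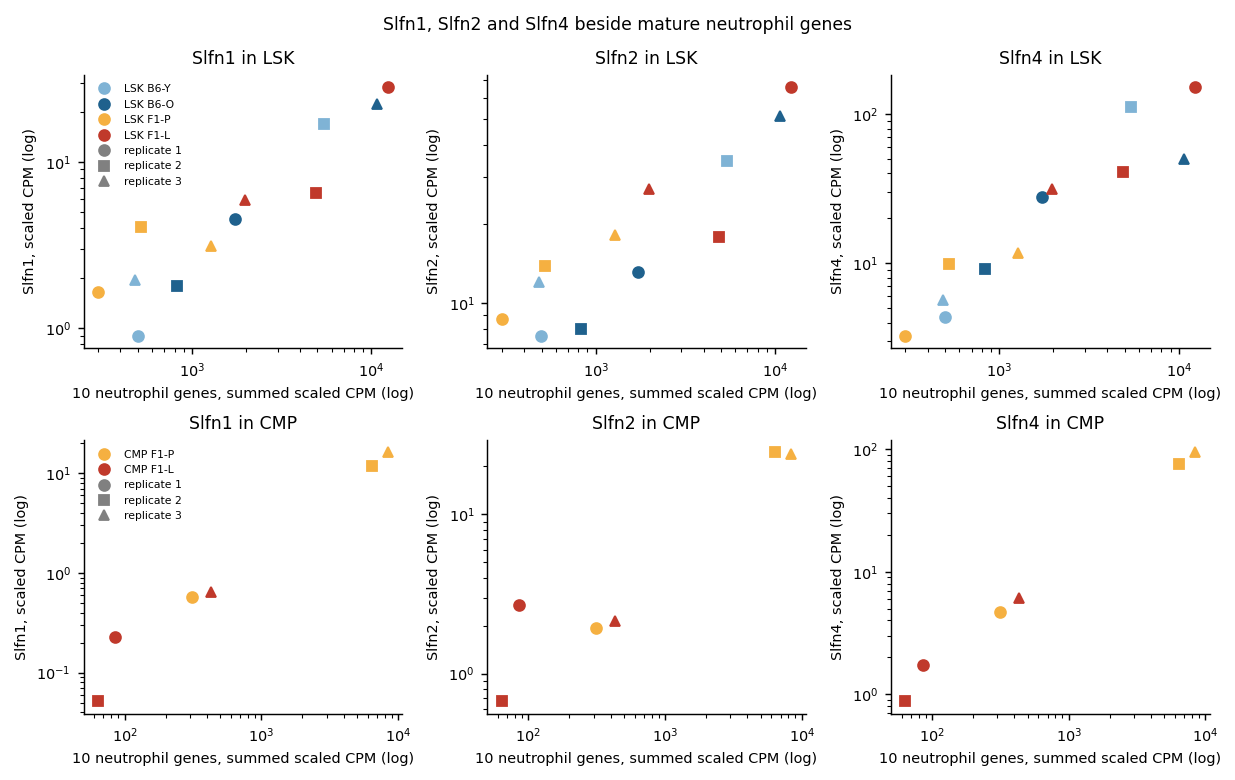
Scaled CPM of Slfn1, Slfn2 and Slfn4 (vertical log axes) against the summed scaled CPM of 10 mature neutrophil genes (horizontal log axes) in the 12 LSK samples (top) and 6 CMP samples (bottom), coloured by group with the replicate as the symbol. The 3 LSK samples above 5000 on the horizontal axis hold the highest Slfn1, Slfn2 and Slfn4 of their groups, and the 2 CMP samples above 5000 are F1-P replicates 2 and 3.

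The genes most like each member over the 12 LSK samples, by Pearson r of log2(scaled CPM + 1) among 10721 protein-coding genes with a mean of at least 5, differed in the same way between members. Those of Slfn4 were C5ar1, the complement C5a receptor (r = 0.98), the chemokine receptor gene Ccr1 (0.97) and the neutrophil gelatinase gene Mmp9 (0.97). Those of Slfn1 were Fcgr3 (0.98), Rasgrp4 (0.97) and its neighbour Slfn2 (0.96), and those of Slfn2 were Hvcn1 (0.97), Fcgr3 (0.97) and Slfn1 (0.96). For Slfn5 they were Slc36a1 (0.90), Pot1b (0.89) and the interferon-induced Oas3 (0.87). Slfn8 was most like Arsb (0.95), Kmt5b (0.94) and Ago4 (0.94), Slfn9 most like 2610002M06Rik (0.97), Cfap97 (0.96) and Vps35 (0.94), and Slfn3 most like Dcp2 (0.97), B230219D22Rik (0.97) and Cul4b (0.97). Slfn8 and Slfn9, in spite of their sequence, had an r of 0.23 over these samples, and Slfn3 and Slfn4 one of -0.18. Over the 6 CMP samples r was 0.90 for Slfn8 and Slfn9 and -0.96 for Slfn3 and Slfn4. In F1-P replicates 2 and 3, the CMP samples richest in neutrophil genes, Slfn4 was at 76.2 and 94.5 and Slfn3 at 15.3 and 15.5. Every other CMP sample had Slfn4 at 0.877 to 6.07 and Slfn3 at 22.2 to 24.1. The r of Slfn3 and Slfn4 thus describes those replicates against the rest. These values are descriptions over samples that share strain, stage and library differences.

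Between the strains, Slfn8 was the member called over all samples. It was at 76.0 to 122 scaled CPM in the 6 NZBW/F1 LSK samples (median 81.9) and at 29.5 to 68.6 in the 6 C57BL/6 samples (median 52.5), with no overlap. Over both ages its log2 fold change was 0.72 (SE 0.19, 95% interval 0.32 to 1.13, adjusted p = 0.0105 in limma), and permuting strain labels within age class gave an exact two-sided p of 0.005, the smallest the 400 arrangements allow. The other 6 members had exact p of 0.195 to 0.850 and overlapping strains. The share of all genes without overlap, or at the smallest exact p, was not computed over both ages, so these values only describe Slfn8. Limma called 1 of the 7 members, where 19.0% of 15084 genes were called, so a call of this kind was common among all genes. At the older age, Slfn8 was at 122, 79.4 and 84.5 in F1-L and at 53.0, 51.7 and 29.5 in B6-O (1.09 on the log2 scale, SE 0.27, adjusted p = 0.0426 in limma), and it was the 1 member of 7 called, with 11.6% of genes called. At the younger age it was at 76.0, 76.2 and 86.4 in F1-P and at 68.6, 66.5 and 52.0 in B6-Y, again without overlap (0.35 on the log2 scale, SE 0.15, adjusted p = 0.139 in limma).

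The size of the Slfn8 difference rested in part on B6-O replicate 3, the lowest sample and one of the 3 richest in neutrophil genes. Without those 3 libraries (a setting chosen after seeing the data), Slfn8 was 0.51 higher on the log2 scale (adjusted p = 0.00382 in limma), under 1.5-fold. Slfn1 was then the member called (0.77, adjusted p = 0.0402 in limma), where 3125 of 14715 genes were. The libraries left out held the highest Slfn1 of their groups: F1-L replicate 1 (28.2), B6-Y replicate 2 (16.9) and B6-O replicate 3 (22.4 scaled CPM). The setting thus decides nothing about Slfn1 between the strains. With B6-O replicate 3 alone left out, the log2 fold change of Slfn8 over both ages was 0.56 (adjusted p = 0.00734 in limma). That was still past the adjusted p but under a fold of 1.5, and at the older age it was 0.82. The older-age call was lost with any of the other 5 samples left out, with adjusted p of 0.0774 to 0.161 in limma, and with edgeR's quasi-likelihood test (adjusted p = 0.0596). Slfn10-ps, the pseudogene next to Slfn8 that shares part of its sequence, was also higher in NZBW/F1 over both ages (0.95 on the log2 scale, SE 0.31, adjusted p = 0.0347 in limma), at 16.0 to 23.7 against 2.77 to 16.3 scaled CPM. Slfn9 was not, with a log2 fold change of -0.06 (SE 0.19). NZBW/F1 reads were aligned to a C57BL/6 genome, and the part of strain differences in sequence was not tested. Of 42 genes annotated within 250 kb of the cluster, 18 were tested over both ages, of which 3 were called higher (Heatr9, Ccl5 and AA465934) and 1 lower (Gm20234) in NZBW/F1, with a median of 0.12, beside the 19.0% of all genes called in this comparison. Ccl5, a chemokine gene of T and NK cells, rose by 2.53 (SE 0.37, adjusted p = 0.000223 in limma).

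Genes of other cells differed between the strains as well. The plasma cell list of 10 genes summed to 95829 to 305581 scaled CPM in the NZBW/F1 and to 1266 to 20619 in the C57BL/6 LSK samples, with Ighm the most abundant in all and 0 genes at 0, and 10 of its 10 genes were called higher over both ages. The 10 T and NK cell genes summed to 189 to 435 against 59.8 to 100.5 (8 of 10 called higher, Ncr1 or Lck the most abundant, 0 at 0), and the 10 monocyte and macrophage genes to 412 to 802 against 71.0 to 259 (2 of 10 called higher, with Ly6c2 the most abundant in each NZBW/F1 sample). Without Ly6c2 the other 9 summed to 81.8 to 327 against 55.3 to 147, so the strains overlapped. These counts stand beside 19.0% of all genes called over both ages, and 2 of 10 is near that share and not a result about the monocyte list. The part of these other cells in the Slfn8 difference was not tested. Within groups, Slfn8 had an r of -0.66 with the plasma cell list (exact permutation p = 0.106, adjusted 0.278, Spearman rho = -0.59), which was -0.29 without the 2 samples farthest from the median of the list, and of -0.06 with the T and NK list (exact permutation p = 0.833). In NZBW/F1 CMPs, where the plasma cell list summed to at most 1492, Slfn8 was at 31.1 to 84.6 scaled CPM in a table normalized separately. Computing the scaling without immunoglobulin genes left Slfn8 the 1 member called at the older age and over both ages.

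Slfn5 was the member called at the younger age, and it fell in F1-P. It was at 14.7, 14.4 and 16.8 scaled CPM in F1-P LSK and at 23.3, 23.8 and 24.4 in B6-Y, with all F1-P samples below all B6-Y samples. The log2 fold change was -0.61 (SE 0.14, 95% interval -0.94 to -0.28, adjusted p = 0.0239 in limma), in a comparison with 16.2% of 14380 genes called. The fold lay close to the threshold of 1.5, so that the median of ratios scaling (-0.58, adjusted p = 0.0283) ended the call. Leaving out any sample but B6-Y replicate 3 also ended it, with adjusted p above 0.05 (0.0540 to 0.130 in limma). With each replicate left out, the log2 fold change was -0.68 to -0.57. In the old mice it was at 21.8, 23.6 and 16.0 in B6-O, which overlapped with F1-L. The stage difference of Slfn5 was larger in NZBW/F1 than in C57BL/6 by 0.78 on the log2 scale (SE 0.23, 95% interval 0.28 to 1.29), with an unadjusted p of 0.00582 and an adjusted p of 0.976 in limma. For Slfn8 the same value was 0.74 (SE 0.32, 95% interval 0.04 to 1.44, unadjusted p = 0.0411, adjusted p = 0.976), and 0.47 without B6-O replicate 3 (at most 0.88 with another sample dropped). In this comparison limma called 0.0% of 15084 genes, and 3.92% had an unadjusted p below 0.05. The quasi-likelihood test of edgeR called 0 genes there, its likelihood ratio test 10 and DESeq2 29, with 0 members among them.

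Other genes of the type I interferon response were lower in F1-P too. Of a list of 25, all tested, limma called 15 lower and 1 higher in F1-P than in B6-Y, with a median log2 fold change of -1.03 beside -0.04 over all genes, of which 16.2% were called in either direction. Oas3, a synthetase that activates RNA decay, fell from 51.1 ± 4.19 to 14.9 ± 2.01 scaled CPM (SD, n = 3; log2 fold change -1.72, adjusted p = 0.000322 in limma). Ifit1, which binds foreign RNA, fell from 9.89 ± 2.62 to 3.82 ± 0.632 (-1.16, adjusted p = 0.0106), and Usp18, which dampens interferon signalling, from 15.3 ± 3.95 to 6.59 ± 1.17 (-1.09, adjusted p = 0.0143 in limma). Zbp1, a sensor of nucleic acids, was the gene that rose, from 16.2 ± 3.91 to 53.9 ± 23.0 (1.60, adjusted p = 0.0186). Genes of other cell types differed in the same comparison, and their part in the Slfn5 and interferon differences was not tested. In F1-P 9 of the 10 plasma cell genes (summing to 120656 to 305581 scaled CPM against 4653 to 13737 in B6-Y, with Ighm the most abundant) and 7 of the 10 T and NK cell genes (277 to 331 against 72.3 to 100.5, with Lck or Ncr1 the most abundant) were called higher. Of 7 genes of plasmacytoid dendritic cells, which make type I interferon, 6 were tested. Ccr9 and Ly6d were called higher in F1-P and Siglech and Irf8 lower, and the 7 summed to 679 to 765 against 803 to 843, with Irf8 or Tcf4 the most abundant. None of the genes in these 3 lists was at 0 in any of these samples, and of 11 LSK and stem cell genes 4 were called lower and 1 higher. At the older age 2 of the 25 were higher (Zbp1 and Herc6) and 1 lower (Rtp4) in F1-L than in B6-O, a share near the 11.6% of all genes called there and so not a result about the list. Between F1-L and F1-P limma called 0 of the 25, with a median of 0.30, beside 0.0279% of all genes. The 25 genes summed to 568 to 653 scaled CPM in F1-P, 681 to 742 in F1-L, 707 to 779 in B6-O and 912 to 1091 in B6-Y. Slfn5 likewise had its lowest LSK mean in F1-P, though B6-O replicate 3 (16.0) lay within the F1-P range of 14.4 to 16.8. In F1-L it was at 19.4 to 24.9 (mean 23.0 ± 3.11, SD, n = 3), which overlapped with B6-Y (mean 23.9 ± 0.546), where the sum was highest. Within groups Slfn5 and the list had an r of 0.06 (exact permutation p = 0.914, rho = 0.17). Over both ages 14 of the 25 were called lower and 2 higher in NZBW/F1, against 19.0% of all genes called, beside a log2 fold change of -0.22 for Slfn5 that was not called.

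**Figure D4:**
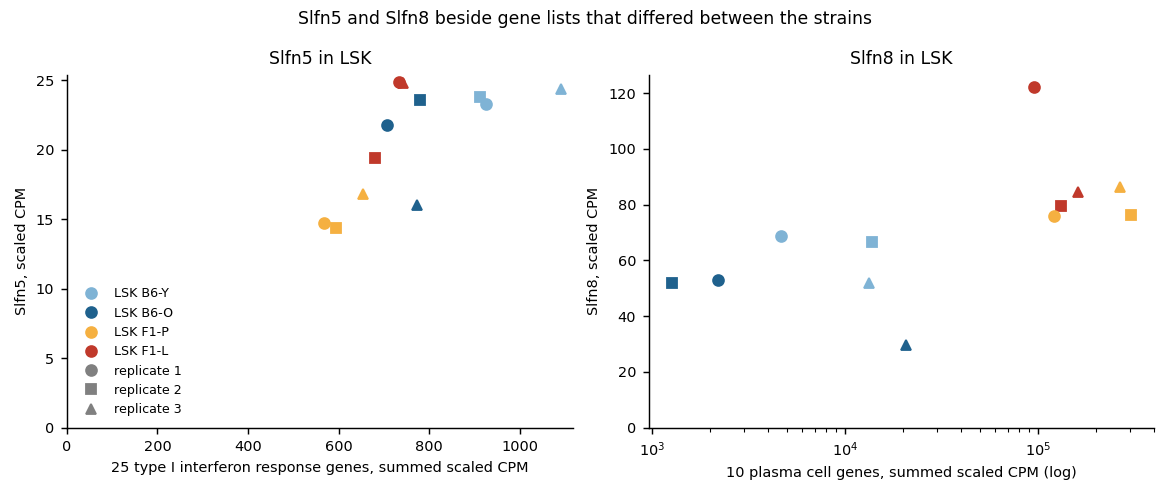
Scaled CPM of Slfn5 against the summed scaled CPM of 25 type I interferon response genes (left) and of Slfn8 against that of 10 plasma cell genes (right, horizontal log axis) in the 12 LSK samples, coloured by group. The 3 F1-P samples are at 568 to 653 on the left with Slfn5 at 14.4 to 16.8, and Slfn8 is at 76.0 or more in all NZBW/F1 samples.

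In the lists that follow, the counts stand beside 16.2% of all genes called at the younger age, 11.6% at the older age and 19.0% over both ages, and with so few genes a share near these is not a result about a list. Of 16 genes of interferon receptors and signal transducers, limma called Tyk2 (log2 fold change 0.86, adjusted p = 0.0406) and Socs1 (1.01, adjusted p = 0.0397) higher and Irf9 (-0.64, adjusted p = 0.0129) and Irf8 (-0.82, adjusted p = 0.00604) lower in F1-P than in B6-Y. Tyk2 is a kinase of the receptor, Socs1 its inhibitor, and Irf9 and Irf8 are transcription factors. Tyk2 and Socs1 were also the 2 of 16 called, both higher, at the older age and over both ages. A list of 15 quiescence factors of lymphocytes and stem cells, set beside Slfn2 for its role, had 3 called higher in F1-P (Klf4, Btg2 and Tob1, by 0.76 to 0.93) and 1 in F1-L (Foxo1) against the controls of their age, 0 lower, and 0 called between disease stages. Of 9 genes of transfer RNA cleavage and modification, chosen for the enzymatic core of the family, limma called 1 over both ages, Ang, an RNase that cuts transfer RNA, which was lower in NZBW/F1 (-0.63, adjusted p = 0.000433), and 0 between stages. In LSK the 11 stem cell genes had Ly6a higher (3.11, adjusted p = 2.18e-05 in limma) and Cd34, Hlf, Meis1 and Flt3 lower in NZBW/F1 over both ages.

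At the older age 6 of the 7 members had a log2 fold change above 0 in NZBW/F1 (median 0.69, against -0.025 over all genes), and 1 had an unadjusted p below 0.05, as did 27.5% of genes. At the younger age 1 of the 7 was above 0 (median -0.21, against -0.04), and 2 had an unadjusted p below 0.05, as did 31.3% of genes. In 1 of the 7 members (Slfn8) all F1-L samples lay above all B6-O samples, as in 17.5% of genes, and in 0 below, as in 20.0%. In F1-P against B6-Y, 1 member lay above (Slfn8, 17.4% of genes) and 1 below (Slfn5, 18.1%). Between old and young C57BL/6 LSK every member overlapped. The log2 fold changes between B6-O and B6-Y ran from -0.51 in Slfn8 to 0.64 in Slfn4, 0 of 7 members had an unadjusted p below 0.05 (6.62% of genes), and 0 were without overlap in either direction (5.69% and 5.57% of genes). In that comparison limma called 0.0% of 14005 genes, with 927 at an unadjusted p below 0.05, while edgeR's quasi-likelihood test called 0, the likelihood ratio test 114 and DESeq2 207.

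In CMPs Slfn1, Slfn2 and Slfn4 were lower in F1-L than in F1-P by their means, opposite to LSK. Slfn2 and Slfn4 were not called, and Slfn1 was too low to be tested. Slfn4 was at 1.73, 0.877 and 6.07 scaled CPM in F1-L and at 4.66, 76.2 and 94.5 in F1-P. F1-P replicate 1 lay among the F1-L samples, and the other 2 F1-P samples stood far above. The log2 fold change was -3.39 (SE 1.14, 95% interval -6.14 to -0.64, unadjusted p = 0.0230, adjusted p = 0.456 in limma). Slfn2 was at 2.68, 0.671 and 2.14 in F1-L and at 1.92, 24.5 and 23.9 in F1-P, with the same overlap (-2.19, SE 0.88, unadjusted p = 0.0438, adjusted p = 0.502). Slfn1 was at 0.227, 0.0516 and 0.647 in F1-L and at 0.576, 11.8 and 16.3 in F1-P. It was above 1 scaled CPM in 2 samples only and was not tested, and its lowest value stands for 1 read.

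Slfn3 was at 22.2, 24.1 and 23.0 scaled CPM in F1-L CMPs and at 22.6, 15.3 and 15.5 in F1-P, with the 2 low samples being those in which Slfn4 was high (0.38 on the log2 scale, SE 0.18, adjusted p = 0.541 in limma). Slfn8 was at 84.6, 38.1 and 62.4 against 31.1, 46.6 and 77.5 (0.28, SE 0.40), and Slfn9 at 52.1, 23.8 and 36.9 against 17.3, 19.8 and 32.6 (0.65, SE 0.34). Both overlapped between stages, and in each stage Slfn8 and Slfn9 were lowest and highest in the same samples. Slfn5 was at 5.68, 2.22 and 3.98 in F1-L and at 0.768, 5.03 and 10.3 in F1-P. Of the 6 members tested, limma called 0 with 0.00774% of 12926 genes called, and 2 had an unadjusted p below 0.05, as did 9.80% of genes. In 0 of the 6 were the groups apart, as in 9.45% of genes with F1-L higher and 6.57% with F1-L lower. The quasi-likelihood test of edgeR called 0 members, its likelihood ratio test called Slfn4 (adjusted p = 0.0150) and Slfn2 (adjusted p = 0.0423) where 2.38% of genes were called, and DESeq2 called the same 2 where 2.72% were.

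The neutrophil genes stood in the same samples. Their sum was 85.5, 63.9 and 429 scaled CPM in the F1-L CMPs and 313, 6426 and 8404 in the F1-P CMPs, with S100a9 the most abundant and 0 of 10 at 0 in each. The same 2 F1-P samples also had 182 and 189 scaled CPM of 8 B cell genes, against 13.2 to 54.7 in the other 4. They were highest too in the plasma cell list (950 and 1492, against 170 to 402) and the T and NK cell list (29.2 and 41.4, against 5.99 to 12.1). A list of 6 genes of the lineage gate summed to 522 and 666 in them, against 254 to 288. These 2 samples stand apart from the other 4, so no correlation of a member with these lists is given over the 6. Without F1-P replicate 1, Slfn4 (log2 fold change -4.70, adjusted p = 0.0154 in limma) and Slfn2 (-3.23, adjusted p = 0.0132) were called, where 434 of 12774 genes were. That replicate was the F1-P sample in which both genes were low, so leaving it out decides nothing about the stage difference. Without F1-P replicates 2 and 3, a setting added after seeing the data that leaves 1 F1-P sample, the log2 fold changes were -0.77 and -0.12. That setting removes the samples in which both genes were high, so it decides nothing about the stage difference. The part of neutrophil RNA in these values was not tested. Of the 25 interferon genes 24 were tested in CMPs and 0 were called, with a median of 0.41.

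**Figure D5:**
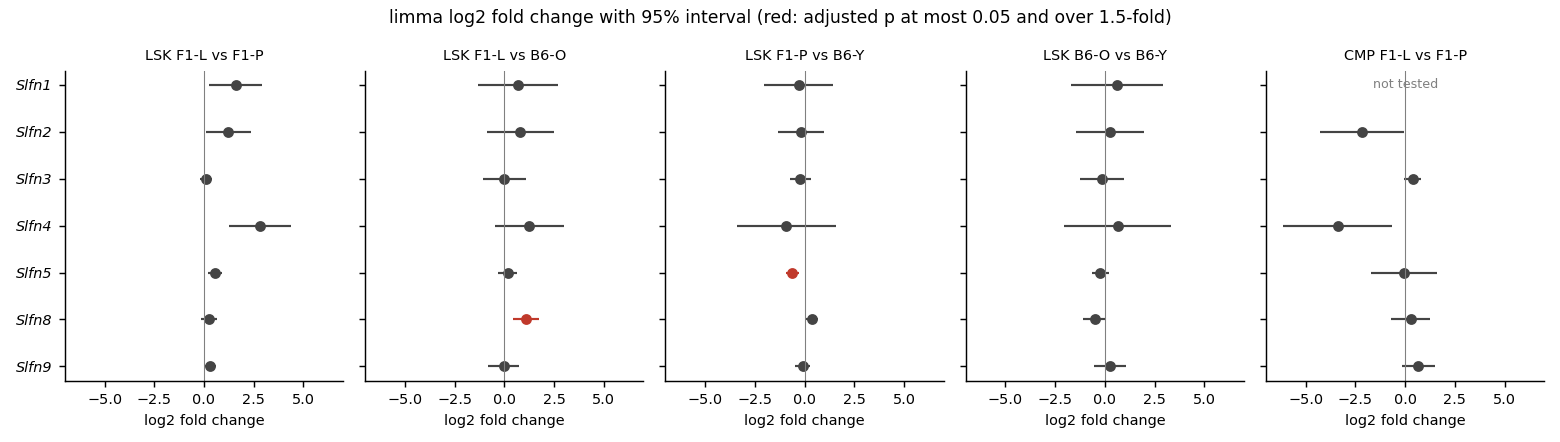
Limma log2 fold changes (horizontal axes) of the 7 members with 95% intervals in the 4 LSK comparisons and in CMPs, first group over second, with called members in red. The called ones are Slfn8 in F1-L over B6-O (1.09) and Slfn5 in F1-P over B6-Y (-0.61), Slfn4 is at 2.82 between stages in LSK and at -3.39 in CMPs, and Slfn1 was not tested in CMPs.

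Side by side between the cell types, without a test since the tables were normalized separately, Slfn3 was higher and Slfn5 lower in CMPs at both stages. Slfn3 was at 15.3 to 24.1 scaled CPM in the CMP and at 8.70 to 10.2 in the NZBW/F1 LSK samples, a difference of means of 1.17 (F1-L) and 0.88 (F1-P) on the log2 scale. Slfn5 was at 0.768 to 10.3 in CMPs and at 14.4 to 24.9 in NZBW/F1 LSK, a difference of -2.33 between F1-L samples and -1.72 between F1-P samples, with no overlap at either stage. In F1-L, Slfn1, Slfn2 and Slfn4 were all lower in every CMP than in every LSK sample, by 3.16, 3.62 and 4.16 on the log2 scale. In F1-P the cell types overlapped for all 3. The neutrophil genes summed to 1978 to 12328 scaled CPM in F1-L LSK and to 63.9 to 429 in F1-L CMPs. In F1-P their sums overlapped, at 299.9 to 1275 and 313 to 8404. The T and NK cell genes summed to 189 to 435 in F1-L LSK and to 5.99 to 12.1 in F1-L CMPs. The part of other cells in these differences was not tested. Slfn8 and Slfn9 were closer between the cell types, with differences of -0.66 and -0.37 in F1-L and of -0.71 and -0.72 in F1-P, where every CMP sample was below every LSK sample in Slfn9. Scaled to the reads outside immunoglobulin genes, Slfn8 too was lower in every CMP sample at both stages (-0.93 in F1-L, -0.91 in F1-P). Per kb of exon, the order in F1-L CMPs was Slfn8 (15.1 ± 5.68), Slfn3 (6.77 ± 0.268), Slfn9 (6.31 ± 2.37), Slfn2 (1.10 ± 0.625), Slfn4 (0.730 ± 0.703), Slfn5 (0.626 ± 0.274) and Slfn1 (0.166 ± 0.164). The samples of Slfn3 and Slfn9 overlapped in this order, as did those of Slfn2 with Slfn4 and of Slfn4 with Slfn5.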

How the data were processed

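Bone marrow LSK and CMPs were sorted by flow cytometry, RNA libraries were made with a TruSeq kit that does not mark strand, and single-end reads were aligned and counted per gene with HTSeq. The submitters' processing notes name STAR 2.6 and edgeR with the mm10 (GRCm38) build. The deposited values are a signal, CPM in which the authors also scaled each library by a normalization factor, made separately for LSK and CMPs. Of the values above 0 in LSK and in CMPs, 100.0% were whole multiples of 1 read (tolerance 0.05), so read counts were recovered from the deposited values for the count tests. Plain CPM had been assumed, and limma was kept for this scaled signal. All columns belonged to a labelled sample.

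Identifiers were matched to GENCODE M21 (19770 genes in LSK, 18421 in CMPs). Members and gene lists were chosen with earlier results of these data known. Named genes were the 7 members, other Slfn genes, genes within 250 kb, list genes, and the 3 protein-coding genes most like each member with a mean of at least 5 CPM; list genes named one by one were chosen after their values were seen.

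The pseudocount was 1, only genes that reached 1 CPM in 3 or more samples were tested, and each fit held the samples compared. The comparison over both ages used all 12 LSK samples with age class as a covariate, and the difference between strains in the stage effect their 4 group means. Tests were run with R 4.3.3, limma 3.58.1, edgeR 4.0.16, DESeq2 1.42.0, Python 3.11.15 and scipy 1.17.1, and checked on simulated data. The alternatives were a pseudocount of 0.1, no filter, median of ratios scaling, scaling without immunoglobulin genes (which took 0.301% to 36.6% of the reads in LSK), a replicate block, DESeq2, the quasi-likelihood test of edgeR and its likelihood ratio test, a single fit of all LSK, and leaving out each replicate. Leaving out the 3 LSK and 2 CMP libraries with over 5000 CPM of neutrophil genes was added after seeing the data. Human samples were not analysed here.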

Additional observations from a re-analysis of the deposited data

How the results depend on the processing

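The Schlafen calls rested on few samples. Slfn4 in F1-P against B6-Y (-0.92) reversed to 0.49 without B6-Y replicate 2, the library rich in neutrophil genes (range -1.70 to 0.49 with each replicate left out), and Slfn8 in CMPs (0.28) ranged from -0.035 to 0.61. Slfn1 over both ages (0.20) was -0.31 with edgeR's quasi-likelihood test, -0.33 with its likelihood ratio test and -0.29 with DESeq2, and ranged from -0.15 to 0.69. Without the 3 neutrophil-rich LSK libraries it was 0.77 (adjusted p = 0.0402 in limma) and the 1 member called, where 3125 of 14715 genes were. Slfn8 was then 0.51 (adjusted p = 0.00382 in limma), under 1.5-fold. Those libraries held the highest Slfn1 of their groups, so leaving them out decides nothing about Slfn1 between the strains. Members called numbered 0 between stages in LSK, but 2 with the likelihood ratio test and 3 with DESeq2, and 0 in CMPs, but 2 with each (0 to 2 with a replicate left out). The 1 call in F1-L against B6-O became 0 with the quasi-likelihood test, and the 1 in F1-P against B6-Y became 0 with median of ratios scaling and without the neutrophil-rich library. With replicates left out these and the call over both ages ranged from 0 to 1. Slfn3 in F1-L, 1.17 higher in CMPs than LSK, was 0.93 higher when scaled to the reads outside immunoglobulin genes.

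Genes called between stages in LSK (4) were 657 with the likelihood ratio test, 734 with DESeq2, 26 with all 12 LSK samples in one fit, 2 without the neutrophil-rich library and 0 to 25 with a replicate left out. In CMPs (1) they were 308 with the likelihood ratio test, 351 with DESeq2 and 0 to 434 with a replicate left out. Between B6-O and B6-Y (0) they were 114, 207, 13 with all LSK in one fit, 1 with scaling without immunoglobulin genes, 57 without the neutrophil-rich libraries and 0 to 48. For the difference of stage effects (0) they were 10, 29, 1 without the neutrophil-rich libraries and 0 to 1. With replicates left out, 448 to 2285 genes were called in F1-L against B6-O (1667) and 927 to 2229 in F1-P against B6-Y (2331). The causes were not tested.

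Groups share replicate numbers 1 to 3, but in no pair of groups did all 3 same-numbered pairs correlate above 0.1 in their deviations from the group means, so the numbers were not taken as pairs. These correlations were 0.32, 0.30 and 0.06 for B6-Y with F1-P LSK, and 0.001, 0.05 and 0.04 for B6-O with F1-L LSK. Every other pair of groups had a value below 0. With the replicate number as a block 0 genes were called between stages in LSK and 0 in CMPs. In F1-P against B6-Y 2787 genes were called (2331 without the block), and in F1-L against B6-O 1380 (1667 without it). The number of members called was the same in all 7 comparisons. At these depths 3 reads correspond to 0.0930 to 0.175 scaled CPM in LSK and 0.118 to 0.155 in CMPs, and Slfn1 was under this with 1 read in 1 of the 6 CMP samples.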
